A study of Mus musculus with 14 samples.

Results

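The torsin family was described in mSCC-38 cells, a mouse line from a chemically induced skin squamous cell carcinoma, through the 6 genes Tor1a, Tor1b, Tor2a, Tor3a, Tor1aip1 and Tor1aip2. They were found by gene name among the non-control probes of the arrays, and all 6 had a probe bright enough to be kept, out of 21374 genes tested. Torsins are ATPases of the AAA+ class that sit in the lumen of the endoplasmic reticulum and in the space between the nuclear membranes. Torsin-1A, the product of Tor1a, hydrolyses ATP only when it is joined by a partner: LAP1 (Tor1aip1) in the inner nuclear membrane or LULL1 (Tor1aip2) in the endoplasmic reticulum. Mutation of human TOR1A causes an inherited dystonia, and torsins are linked to nuclear envelope shape, nuclear pore assembly, lipid synthesis and the handling of misfolded proteins.

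Cells received Si1AK or Si2AK, which are distinct siRNAs directed at the transcript AK144841, or the control siRNA SiC, each with the lipid reagent RNAimax and 72 h before harvest. Untransfected cells (NT) carry no stated time. There were 4 Si1AK, 3 Si2AK, 3 SiC and 4 NT samples, each grown in a 35 mm dish per the labels' protocol and read on 1 array of 1 colour. Whether the replicates came from different cultures is not stated, and a p-value here covers just the variation seen among these arrays, possibly technical. AK144841 itself was not analysed here, so the knockdown was not checked.

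Tor2a was selected on measured values: its level was low with Si1AK and not with Si2AK. Its differences in Si1AK against SiC, Si2AK against SiC and Si1AK against Si2AK are therefore given as a description without a test. The same holds for its siRNA groups against NT, which use the same arrays, and for SiC against NT, as both groups were among the levels looked at. Tests are given for the other genes only in comparisons with NT. Those comparisons share the arrays of the siRNA groups with the ones that chose Tor2a, and Si1AK and Si2AK share their NT arrays with each other, so none is an independent repeat. They also include any effect of transfection itself.

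Levels are log2 of the background-corrected signal minus the 75th percentile of the same array, so a level of 0 is at that percentile and a positive difference means a higher level in the group named first. The level of 1 probe cannot be set against the level of another, and only differences between groups of the same probe were compared. A gene was called changed at an adjusted p below 0.05 in limma, with p-values adjusted over all 21374 genes by the Benjamini-Hochberg method.

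The 14 arrays lay on 2 slides. SiC replicate 1 was the only SiC array on slide 1 and Si2AK replicate 3 the only Si2AK array on slide 2. Of these arrays, 12 had a median signal between 23.5 and 58.7 and 51.8% to 59.4% of probes well above background. Si2AK replicate 2 had a median of 107.5 and 84.8% of probes above background, and SiC replicate 1 had 270.9 and 90.5%. Both arrays stood apart, and results are given with and without them where they mattered. Of 9 keratinocyte markers, 8 were well above background on all arrays (Krt5, Krt14, Trp63, Itga6, Itgb4, Epcam, Krt8 and Krt18), and Cdh1, the gene of E-cadherin, was so on 2 of 14 arrays. Markers of other cell types were also above background on all arrays for 3 of 5 fibroblast, 3 of 5 leukocyte, 3 of 4 endothelial and 2 of 4 melanocyte genes.

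The 6 genes had 11 probes. A Tor1aip2 probe was not well above background on any of the 14 arrays, and the other 10 were kept. Tor2a was read by 1 probe alone, at chr2:32617687-32617746 on the plus strand of mm9, which starts at base 1458 of the transcript the array names variant 1. The last 30 of the 60 bases are shown for probes of the 3 genes whose levels differed most between groups, because a single probe carries the Tor2a result while Tor1b and Tor3a each have a second one. Capitals mark the polyadenylation hexamers AATAAA and ATTAAA, which overlap in the Tor2a probe.
Tor2a: tttgtacaagagaacagagATTAAATAAAc
Tor3a, main probe: ggcctcgtcatgtgtaATTAAAtcttgtat
Tor1b, main probe: gcaagactgtgcagtcccggctggatttcc
Tor1b, second probe: tgaggcttattctcaggtttttaacgttgc
The main Tor3a probe lies at chr1:158585160-158585219 on the minus strand, and the Tor1b probes at chr2:30812509-30812568 and chr2:30813627-30813686 on the plus strand. The longest run of bases that the Tor2a probe shares with any of the 10 other torsin family probes is 8. A hexamer as written, on the probe's own strand, occurs in 13.7% of all 55681 probes and in 15.7% of those kept, and on the opposite strand in 6.14%. The match describes the letters of the probe only.

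Tor2a, which encodes a torsin of the endoplasmic reticulum whose gene in people also gives rise to the salusin peptides by another splice form, was low in every Si1AK array and high in every Si2AK array. Its levels were -0.83, -0.91, -0.94 and -0.61 in Si1AK cells, 1.84, 2.01 and 1.68 in Si2AK cells, 1.15, 1.33 and 1.42 in SiC cells, and 1.40, 1.52, 1.29 and 1.52 in NT cells. All 4 Si1AK arrays lay below all other arrays, all 3 Si2AK arrays lay above them, and the SiC and NT arrays overlapped. The group means were -0.82 ± 0.151 with Si1AK, 1.85 ± 0.165 with Si2AK, 1.30 ± 0.134 with SiC and 1.43 ± 0.115 in NT cells (SD, n = 4, 3, 3 and 4). In descending order the groups ran Si2AK, NT, SiC and Si1AK, and of the neighbours in that order only NT and SiC were within their spread.

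**Figure D1:**
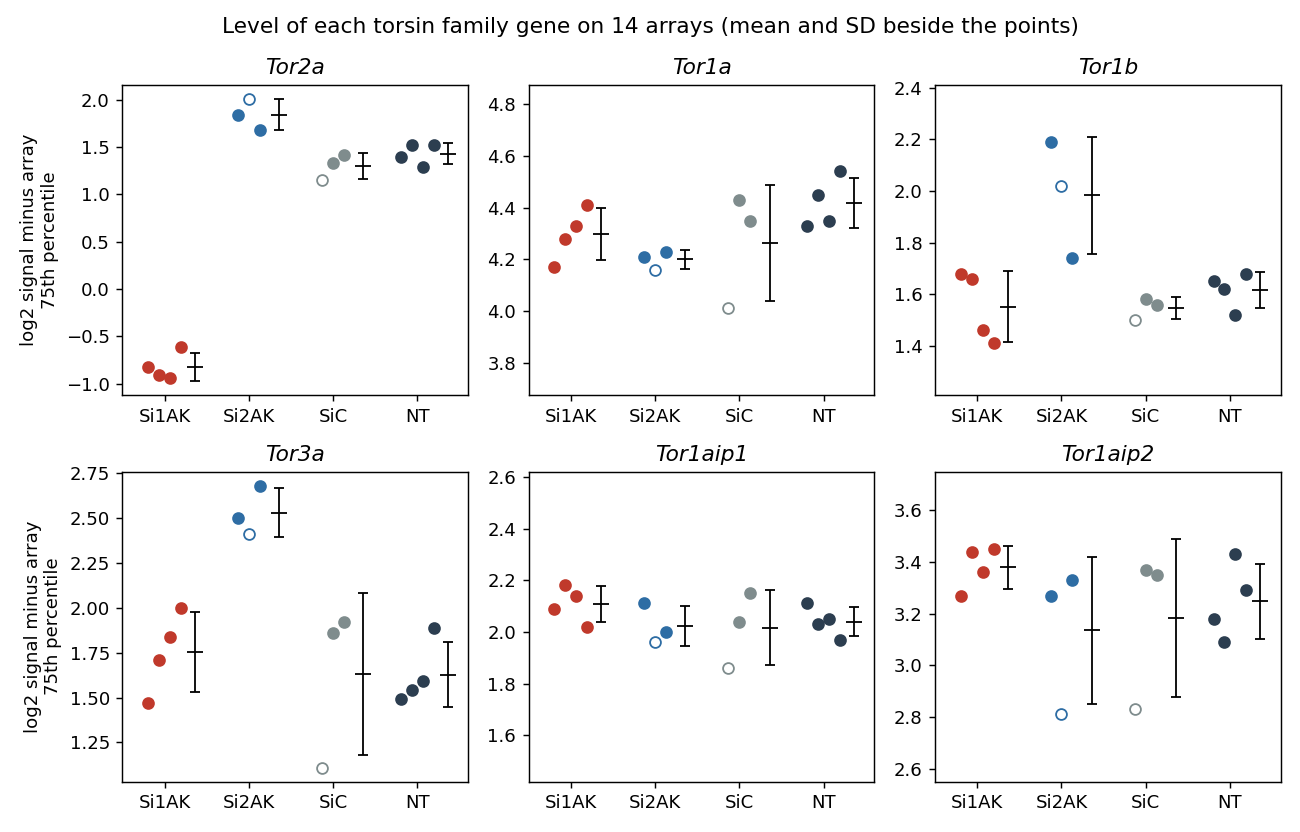
Level of each of the 6 genes on every array, as log2 signal minus the array's 75th percentile, by group, with the mean and SD beside the points and the 2 arrays of raised signal (Si2AK replicate 2 and SiC replicate 1) as open circles. The 4 Si1AK arrays of Tor2a lie between -0.94 and -0.61 and the 3 Si2AK arrays between 1.68 and 2.01; the vertical scale differs between panels.

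Si1AK left Tor2a at 23% of its SiC level, a log2 difference of -2.12 ± 0.113 (SE). Against NT the difference was -2.25 ± 0.104, or 21% of the NT level. Slide by slide, Si1AK minus SiC was -2.03 on slide 1, where SiC is the raised array alone, and -2.15 on slide 2, and without both raised arrays it was -2.20.

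With Si2AK the level of Tor2a was 146% of that with SiC, a difference of 0.55 ± 0.121, and 133% of that in NT cells, a difference of 0.41 ± 0.113. The 3 Si2AK arrays lay above the SiC and the NT arrays. The size of the Si2AK difference leaned on the raised arrays more than the Si1AK one: Si2AK minus SiC was 0.77 on slide 1, 0.31 on slide 2 and 0.39 without both raised arrays, and Si2AK minus NT was 0.33 without them. The part of the raised signal in these differences was not tested.

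Between the siRNAs, Tor2a was at 15.7% with Si1AK of its level with Si2AK, a difference of -2.67 ± 0.113, or 6.36-fold. The difference was -2.80 on slide 1, -2.46 on slide 2 and -2.59 without both raised arrays. SiC and NT arrays, in contrast, overlapped: SiC minus NT was -0.13 ± 0.113. This difference is a description too, since the levels on which the gene was chosen covered SiC and NT.

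Tor3a, a torsin whose human counterpart is induced by interferon, was higher with Si2AK than in every other group. It read 1.47, 1.71, 1.84 and 2.00 in Si1AK cells, 2.50, 2.41 and 2.68 in Si2AK cells, 1.11, 1.86 and 1.92 in SiC cells, and 1.49, 1.54, 1.59 and 1.89 in NT cells. The 3 Si2AK arrays lay above all 11 others, and the other groups overlapped each other. The Si2AK level was 187% of that in NT cells, a log2 difference of 0.90 ± 0.194 (adjusted p = 0.00852, limma). It was 0.96 ± 0.151 without both raised arrays (adjusted p = 0.00223, limma), 0.94 on slide 1 and 0.94 on slide 2. The call was lost on either slide alone, with adjusted p of 0.0502 and 0.063 (limma).
The second Tor3a probe moved the same way, with Si2AK minus NT at 0.79 ± 0.238 (adjusted p = 0.0474, limma), although 1 of its 4 NT values was lacking. Its NT values were 0.22, -0.69 and -0.75, and its Si2AK values 0.19, 0.50 and 0.46, so the 2 groups overlapped for this probe. The 2 probes averaged gave 0.60, which was not called. Si1AK minus NT was 0.13 ± 0.179 for the main probe (adjusted p = 0.738) and -0.24 ± 0.222 for the second (adjusted p = 0.606, limma), a turn of sign within the error.

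Tor1b encodes torsin-1B, the close relative of torsin-1A that can stand in for it in many tissues outside the nervous system. Its levels were 1.68, 1.66, 1.46 and 1.41 in Si1AK cells, 2.19, 2.02 and 1.74 in Si2AK cells, 1.50, 1.58 and 1.56 in SiC cells, and 1.65, 1.62, 1.52 and 1.68 in NT cells. The Si2AK arrays lay above all others, by a margin that replicate 3 made small. Si2AK minus NT was 0.37 ± 0.108 (adjusted p = 0.0403, limma). That call was close to the threshold and was lost in most of the other settings tried, among them leaving out both raised arrays, where the difference was 0.35 ± 0.128 (adjusted p = 0.0881, limma). On slide 1 it was 0.47 and on slide 2 0.14. The second Tor1b probe gave 0.22 ± 0.187 (adjusted p = 0.526, limma).
Si1AK minus NT was -0.06 ± 0.1 for the main Tor1b probe (adjusted p = 0.765, limma). The second probe gave -0.31 ± 0.173 there (adjusted p = 0.336) and -0.32 ± 0.187 in SiC minus NT (adjusted p = 0.638, limma).

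Tor1a, the best known member, was read by 1 probe at chr2:30816294-30816353. Its levels ran between 4.17 and 4.41 with Si1AK, 4.16 and 4.23 with Si2AK, 4.01 and 4.43 with SiC, and 4.33 and 4.54 in NT cells. The Si2AK and NT arrays did not overlap, with a difference of -0.21 ± 0.105 that was not called (adjusted p = 0.223, limma). Si1AK minus NT was -0.12 ± 0.0975 (adjusted p = 0.537, limma). In 2 other scalings of the arrays, normexp with quantile normalization and the authors' deposited value table, the Si2AK difference of Tor1a was called, at -0.24 and -0.25.

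The activators of the torsins were not called in either siRNA group against NT. Tor1aip1 ranged from 2.02 to 2.18 with Si1AK, 1.96 to 2.11 with Si2AK, 1.86 to 2.15 with SiC and 1.97 to 2.11 in NT cells, and Tor1aip2 from 3.27 to 3.45 with Si1AK, 2.81 to 3.33 with Si2AK, 2.83 to 3.37 with SiC and 3.09 to 3.43 in NT cells. All 4 groups overlapped for both genes. Si1AK minus NT was 0.07 ± 0.0758 for Tor1aip1 (adjusted p = 0.664) and 0.13 ± 0.145 for Tor1aip2 (adjusted p = 0.658, limma). Si2AK minus NT was -0.01 ± 0.0818 for Tor1aip1 (adjusted p = 0.944) and -0.11 ± 0.157 for Tor1aip2 (adjusted p = 0.748, limma). For both genes the lowest Si2AK array was replicate 2 and the lowest SiC array was replicate 1, the arrays of raised signal.
The second probe of Tor1aip1, which the array places across 1042 bases of the genome, gave -0.45 ± 0.129 for Si1AK minus NT (adjusted p = 0.0582, limma). It gave -0.36 ± 0.139 for Si2AK minus NT (adjusted p = 0.117) and -0.33 ± 0.139 for SiC minus NT (adjusted p = 0.636, limma). The low reading was thus not particular to Si1AK, and Si1AK minus SiC was -0.13 ± 0.139. In Si1AK minus NT the main probe gave the opposite sign, so the 2 probes disagreed without either being called. The array names transcript variant 1 for the main probe and variant 2 for the second. The second Tor1aip2 probe gave 0.25 ± 0.1 for Si1AK minus NT (adjusted p = 0.167, limma).

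**Figure D2:**
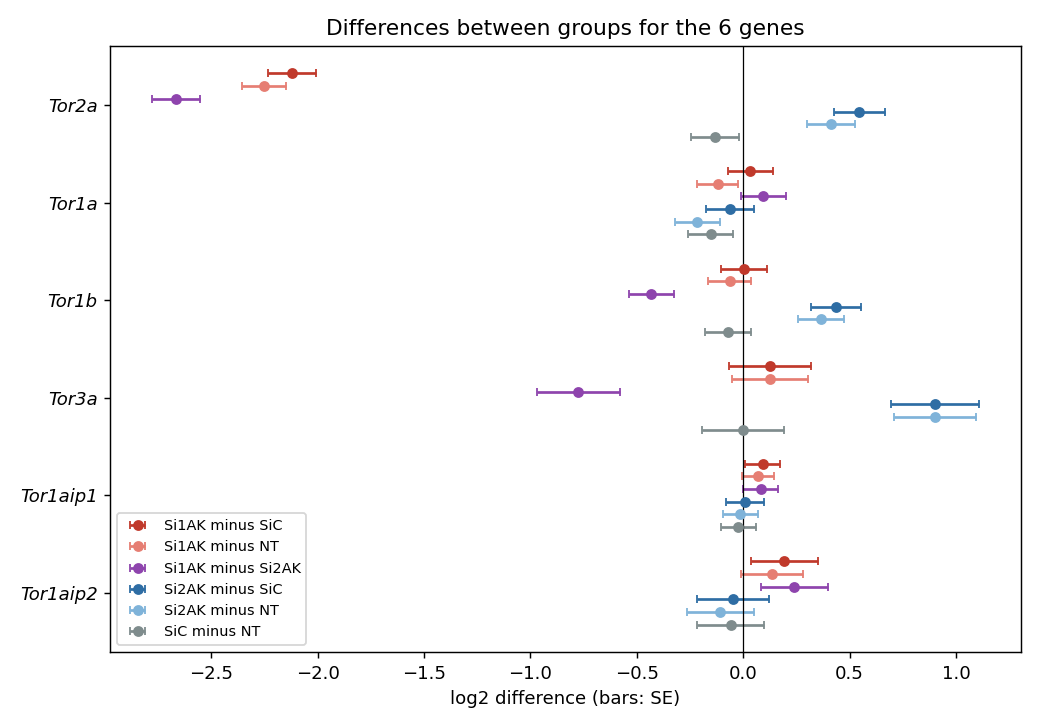
Log2 difference between groups for the 6 genes in the 6 comparisons, with the SE of the limma fit over all 14 arrays. Tor2a alone has values near -2 in the Si1AK comparisons (-2.12 against SiC, -2.25 against NT and -2.67 against Si2AK), and Tor3a is at 0.90 with Si2AK against NT.

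Calls were counted over the 5 genes other than Tor2a. In Si1AK minus NT 0 of these 5 were called, where 7.05% of all genes were called, 4.02% higher and 3.03% lower. In Si2AK minus NT 2 of the 5 were called, Tor1b and Tor3a, both higher, where 15.6% of all genes were called, 7.96% higher and 7.67% lower. In SiC minus NT 0 of these 5 were called by limma, and 0% of all genes, while 1586 genes (7.42%) had an unadjusted p below 0.05.
In the comparisons that chose Tor2a, calls of the 5 genes are not counted. Over all genes, 4.41% were called in Si1AK minus SiC, 3.18% higher and 1.23% lower. In Si2AK minus SiC 13.2% were called, 8.5% higher and 4.66% lower, and in Si1AK minus Si2AK 12.4%. The 5 other genes differed there by 0.01 to 0.19 in Si1AK minus SiC, where the median of all genes was -0.06. Si2AK minus SiC was 0.44 ± 0.116 for Tor1b and 0.90 ± 0.207 for Tor3a, and Si1AK minus Si2AK was -0.43 ± 0.108 for Tor1b and -0.78 ± 0.194 for Tor3a.

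Genes with links to torsin function were set beside the family. The lists were chosen with earlier results of these data known, so their counts and p-values are not an independent check. Tor4a, the remaining torsin, was not called against NT in either siRNA group (0.19 ± 0.125 with Si1AK, adjusted p = 0.424; -0.002 ± 0.135 with Si2AK, adjusted p = 0.995, limma).
Of 16 genes of the nuclear envelope, 1 fell and 0 rose in Si1AK minus NT, beside 3.03% and 4.02% of all genes. The gene was Lemd3, which encodes the inner nuclear membrane protein MAN1, lower by 0.39 on the log2 scale (adjusted p = 0.0153, limma). The Lemd3 call was lost without Si1AK replicate 1 and, in another fit, without Si1AK replicate 2. The median of the list was -0.22 where the median of all genes was -0.09. A low median was also seen with the control siRNA, at -0.14 in SiC minus NT beside -0.008 over all genes, with 0 of the 16 called. Against SiC the list median was -0.11 with Si1AK and 0.03 with Si2AK, beside -0.06 and -0.02 over all genes. In Si2AK minus NT, 3 fell and 1 rose, beside 7.67% and 7.96% of all genes, with a median of -0.12 beside 0.02 over all genes. Those that fell were Nemp1, a nuclear envelope membrane protein, at -0.82 ± 0.119 (adjusted p = 0.000849), Lmnb1, the gene of lamin B1, at -0.66 ± 0.138 (adjusted p = 0.00718), and Lbr, the lamin B receptor, at -0.51 ± 0.11 (adjusted p = 0.00843, limma). Sun1, which joins lamins to the cytoskeleton through the nuclear membranes, rose by 0.31 ± 0.0856 (adjusted p = 0.0307, limma). The Sun1 call was lost without both raised arrays (adjusted p = 0.0587) and in 4 of 7 fits that left out 1 array, while the calls of Nemp1, Lmnb1 and Lbr were kept in all of these. With Si1AK 4 genes were called lower without both raised arrays, Lemd3, Sun2, Tmpo and Nemp1. That fit called 3124 of all 21374 genes in Si1AK minus NT, against 1507 in the fit of all arrays. Over the 8 fits that left out 1 array, Lemd3 was called in 6, Nemp1 in 1, and Sun2 and Tmpo in 0.

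Of 9 genes for folding and degradation in the endoplasmic reticulum and for torsin partners, 8 were measured. In Si2AK minus NT 5 rose and 0 fell, beside 7.96% and 7.67% of all genes, with a median of 0.41 beside 0.02 over all genes. Derl1, a channel component for the export of misfolded proteins, rose by 0.61 ± 0.109 (adjusted p = 0.00292, limma). Sel1l, its ubiquitin ligase scaffold partner, rose by 0.53 ± 0.121 (adjusted p = 0.0121), and Os9, a lectin of the same route, by 0.45 ± 0.116 (adjusted p = 0.0217, limma). Dnajb6, a cochaperone, rose by 0.44 ± 0.103 (adjusted p = 0.0129), and Mlf2 by 0.24 ± 0.0712 (adjusted p = 0.0391, limma). In Si1AK minus NT 0 of the 8 were called, with a median of 0.05 beside -0.09. The difference between the siRNAs was not tested for the list. Without both raised arrays 5 rose with Si2AK, of which 4 were the same genes. Mlf2 lost its call (adjusted p = 0.0629, limma) and Hspa5, the chaperone BiP, gained one at 0.42 ± 0.13 (adjusted p = 0.0461, limma). By the ratio of difference to SE, Hspa5 ranked 3941 among all genes in that fit, while the fit of all arrays called 3341 genes. More genes were thus called in Si2AK minus NT without the raised arrays. Over the 7 fits that left out 1 array, Derl1 and Sel1l were called in all 7, Dnajb6 in 6, Os9 in 3, Mlf2 in 1 and Hspa5 in 0.
Among the 5 genes of the lipin route, which torsins are known to restrain in fly and mouse, 1 was called in each siRNA group against NT, beside 7.05% of all genes with Si1AK and 15.6% with Si2AK. Lpin3, a phosphatidate phosphatase, rose by 0.46 ± 0.102 with Si1AK (adjusted p = 0.0199) and by 0.83 ± 0.11 with Si2AK (adjusted p = 0.000494, limma). With Si1AK the call was lost in 5 of the 8 fits that left out 1 array (without Si1AK replicate 2, 3 or 4, or NT replicate 1 or 2), and with Si2AK in 0 of 7. Of 8 ESCRT genes, whose products reseal membranes, 1 rose and 0 fell in Si2AK minus NT, beside 7.96% and 7.67% of all genes. It was Chmp3, higher by 0.34 ± 0.0768 (adjusted p = 0.011, limma). In Si1AK minus NT 0 of these ESCRT genes were called, beside 7.05% of all genes. The Chmp3 call was lost without Si2AK replicate 1 (adjusted p = 0.0508, limma). Without both raised arrays 3 ESCRT genes rose, Chmp2b, Chmp3 and Chmp4b. In that fit the called gene Hspa5 ranked 3941 among all 21374 genes, while the fit of all arrays called 3341. Over the 7 fits that left out 1 array, Chmp3 was called in 6, Chmp2b in 1 and Chmp4b in 0.

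**Figure D3:**
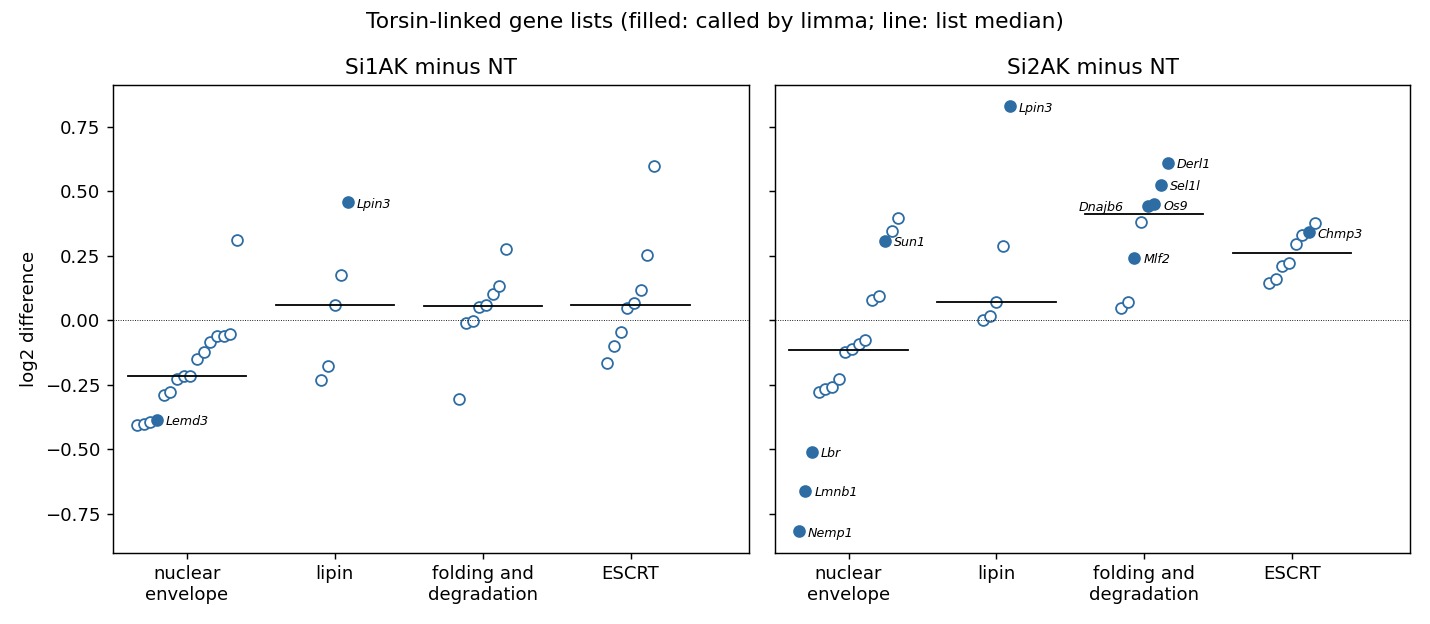
Log2 difference from NT of each gene in 4 lists of torsin-linked genes for Si1AK (left) and Si2AK (right), as points that are filled where limma called the gene, with the list median as a line. With Si2AK, 5 of 8 folding and degradation genes are filled and higher, with a median of 0.41, and with Si1AK none is, with a median of 0.05. The lists were chosen with earlier results of these data known.

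By the array's own coordinates on mm9 chromosome 2, 9 genes had a probe within 100 kb of the Tor2a probe. Of these, 8 had a kept probe. In Si1AK minus NT 0 of these 8 were called lower, beside 3.03% of all genes. At that share 0 calls among 8 genes would not be unusual, so nothing about the region is read from the count. Ttc16, whose probe lies 0.1 kb away, differed by 0.01 ± 0.123 (adjusted p = 0.97, limma). Sh2d3c, at 7.3 kb on the other side, rose by 0.62 ± 0.0988 (adjusted p = 0.00348, limma). Cfap157 gave -1.05 ± 0.74, an error too wide for a call (adjusted p = 0.464, limma). The differences of Eng, Fpgs and Cdk9 ran from -0.24 for Cdk9 to 0.22 for Eng, and none of these 3 was called. In Si2AK minus NT 0 of the 8 were called, beside 15.6% of all genes.

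The 5 genes with the pattern most like that of Tor2a were found by the smallest root mean square distance between centred levels over the 14 arrays, among 13887 genes with a symbol. They are Cmtm6 (distance 0.267), Gpt2 (0.399), Glud1 (0.424), Stk11ip (0.434) and Fzd5 (0.451). Because this choice used all the arrays, their differences are a description. In Si1AK minus NT they were -1.76 for Cmtm6, which encodes a regulator of PD-L1 at the cell surface, -1.40 for Gpt2, an alanine aminotransferase, and -1.49 for Glud1, glutamate dehydrogenase. Stk11ip was at -1.37 and Fzd5, a Wnt receptor, at -1.43. In Si2AK minus NT the 5 ran from 0.08 for Glud1 to 1.19 for Gpt2, and Tor2a was at 0.41. Their Si1AK arrays lay below all of their other arrays in each case.

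**Figure D4:**
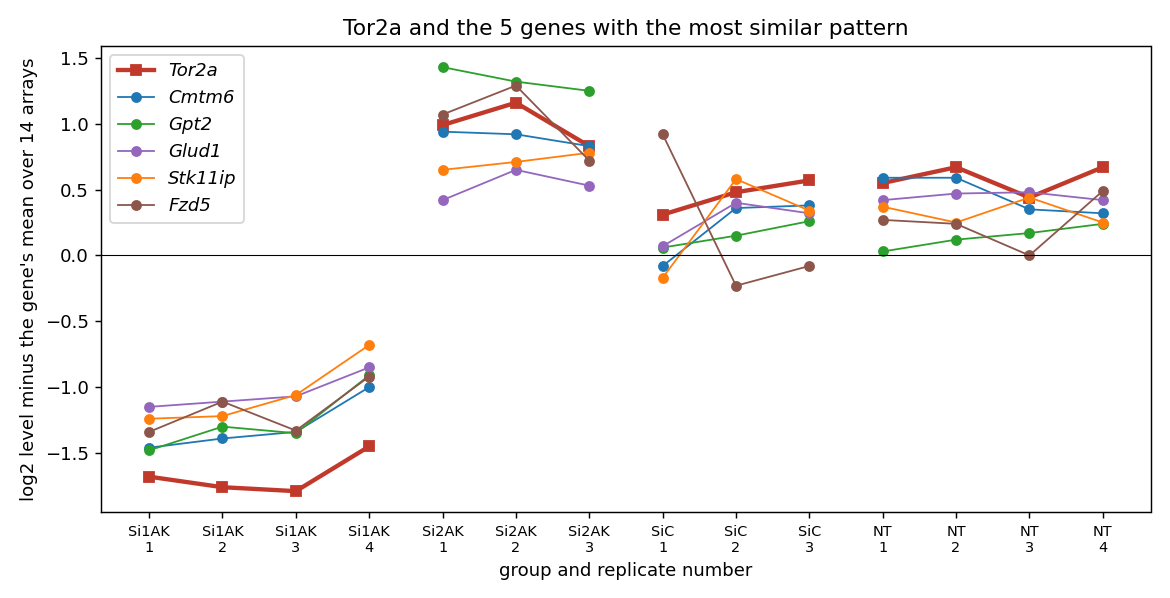
Level of Tor2a and the 5 genes with the most similar pattern on each of the 14 arrays, as log2 level minus the gene's own mean over all arrays. For each of the 6 genes the 4 Si1AK points lie below 0, and the 3 Si2AK points lie above 0.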

How the data were processed

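Expression was measured in 14 samples of mSCC-38 cells on 1-colour Agilent arrays. Per the file headers, Agilent Feature Extraction 10.7.3.1 made the processed signal, an intensity corrected for background within each array and not scaled between arrays, along with raw mean and background intensities and marks for spots above background, saturated or outlying (a unit other than intensity). The value table deposited by the authors is on a log2 scale, with a median of 6.51 in each of the 14 columns, which correlated with log2 of the raw mean signal across spots (r of at least 0.991). Higher values there stood for brighter spots and genes were not centred, while its background step is unknown. Limma was used per the submitters' processing notes, with no version given.

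Of 59305 non-control spots per array, those marked as uneven or outlying were left out and the rest averaged over 55681 probes. Probes well above background on all arrays of at least 1 group were kept (30326), and a gene was represented by its probe of highest mean. Names came from RefSeq (GRCm38.p6 table) for 27656 probes and otherwise from the array, and coordinates are the array's own, on mm9. The hexamers AATAAA and ATTAAA were searched in the probe letters as printed and on the opposite strand. Levels were log2 processed signal minus each array's 75th percentile. One limma model (version 3.58.1, R 4.3.3; lmFit and eBayes) took all 14 arrays, with Benjamini-Hochberg adjustment over 21374 genes and calls at 0.05. The script was tested on simulated data. The 6 genes and all lists were chosen with earlier results of these data known. Genes named are the 6 genes, called or extreme genes of the lists, genes within 100 kb of Tor2a, and the 5 most similar to Tor2a. No probe was saturated, and the number of arrays limits the precision. Errors are SD for group means and the moderated SE for differences. Alternatives covered background correction, centring, the value table, dim probes, averaging of probes, slide, replicate block, the arrays in the fit and leaving out arrays. Same-numbered replicates of different groups were not paired by any label, and their deviations correlated at -0.692 to 0.735 over 19 pairs, with 12 of them over 0.1. Some of the genes near Tor2a and 1 probe sequence are not reported here.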

Additional observations from a re-analysis of the deposited data

Results flagged for a closer look

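Tor2a was singled out because all 4 Si1AK arrays lay below the SiC mean while all 3 Si2AK arrays lay above it, and the same held for the NT mean. The log2 difference of Si1AK minus Si2AK was -2.668. This difference was not tested, since the gene was chosen on it. In groups of 4 arrays, no torsin family gene had an array far from the others by Dixon's criterion, and groups of 3 were not examined.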

How the results depend on the processing

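Tor2a kept its sign in every alternative run: Si1AK minus SiC ran from -2.195 to -1.096, Si2AK minus SiC from 0.31 to 0.987, and Si1AK minus Si2AK from -2.8 to -2.083. Leaving out 1 array at a time gave -2.195 to -2.063, 0.463 to 0.628 and -2.75 to -2.585. For SiC minus NT it gave -0.191 to -0.059. Centring arrays on their median moved the median of all genes by 1.025, to 0.965, in Si1AK minus SiC and by 0.453, to 0.365, in Si1AK minus NT. Tor2a was then at -1.096, 0.987 and -2.083 in the 3 comparisons that chose it, and relative to the median of all genes at -2.061, 0.566 and -2.571. In that setting Tor1b (0.234) and Tor3a (0.769) lost their calls in Si2AK minus NT, and Tor1a (0.333) and Tor1b (0.389) changed sign in Si1AK minus NT, as did Tor1b in Si1AK minus Si2AK (0.155). The genes called then numbered 5, 1, 14, 1, 6 and 0 in Si1AK minus SiC, Si2AK minus SiC, Si1AK minus Si2AK, SiC minus NT, Si1AK minus NT and Si2AK minus NT, and 0 in both the nuclear envelope and the folding and degradation list. Normexp with quantile normalization moved that median by 0.106 in Si1AK minus SiC, 0.13 in Si1AK minus Si2AK and 0.113 in Si1AK minus NT, and gave 1431 called genes in Si1AK minus SiC and 1 in SiC minus NT, -2.461 for Tor2a between the siRNAs, and turned the sign of SiC minus NT in Tor1b (0.035), Tor3a (0.091), Tor1aip1 (0.085) and Tor1aip2 (0.064). The authors' deposited value table turned the same 4 (0.054, 0.092, 0.086 and 0.061), and Tor1aip1 in Si2AK minus NT (0.04). On slide 1 alone Tor2a was 0.773 in Si2AK minus SiC, Tor1b (0.471) and Tor3a (0.939) lost their calls in Si2AK minus NT, Tor1b was 0.032 in Si1AK minus NT, and the genes called numbered 0, 397, 363, 5 and 407 in Si1AK minus SiC, Si2AK minus SiC, Si1AK minus Si2AK, Si1AK minus NT and Si2AK minus NT. On slide 2 alone Tor2a was 0.31 in Si2AK minus SiC and -2.455 between the siRNAs, Tor1b (0.138) and Tor3a (0.936) lost their calls, SiC minus NT was 0.147 for Tor3a, 0.081 for Tor1aip1 and 0.006 for Tor1aip2, and the counts were 34, 182, 387, 27 and 565, with 1 in SiC minus NT. Both lists had 0 genes called in Si2AK minus NT on either slide. A lone array of a group is assumed to vary there like the other groups. Without the filter on dim probes more genes were tested, Tor1b (0.366) lost its call, and the counts were 397, 1522, 1589, 719 and 2025, with 3 in the folding and degradation list. The mean of a gene's probes gave 0.295 for Tor1b and 0.602 for Tor3a in Si2AK minus NT, neither called, -0.298 for Tor3a and -0.192 for Tor1aip1 in Si1AK minus NT, 0.011 for Tor1aip2 in Si2AK minus NT, and 3 in the folding and degradation list. The other probe, a choice made after seeing the data, gave 0.224 for Tor1b, 0.13 for Tor1aip2 in Si2AK minus NT, and -0.236 for Tor3a and -0.453 for Tor1aip1 in Si1AK minus NT. With the replicate block, although numbers do not pair the samples, Tor1b was 0.353 without a call, and Tor3a 0.083 in SiC minus NT. With only the groups compared, Tor1b (0.366) lost its call, the genes called numbered 252 in Si1AK minus SiC and 90 in Si2AK minus SiC, and both lists had 2 called. Without both raised arrays Tor1b (0.346) lost its call, Tor2a was 0.39 in Si2AK minus SiC, Tor3a (0.259), Tor1aip1 (0.053) and Tor1aip2 (0.119) turned in SiC minus NT and Tor1aip1 (0.017) and Tor1aip2 (0.054) in Si2AK minus NT, with 5 genes called in SiC minus NT and 3124 in Si1AK minus NT. The slide as a block gave 2 genes in SiC minus NT. Leaving out 1 array at a time gave 0.263 to 0.49 for Tor1b and 0.827 to 0.987 for Tor3a in Si2AK minus NT; Tor1b was called only without Si2AK replicate 3. It gave -0.147 to 0.259 for Tor3a, -0.088 to 0.053 for Tor1aip1 and -0.154 to 0.119 for Tor1aip2 in SiC minus NT, and -0.058 to 0.017 for Tor1aip1 and -0.205 to 0.054 for Tor1aip2 in Si2AK minus NT. Genes called then numbered 426 to 764 in Si1AK minus SiC, 1756 to 2707 in Si2AK minus SiC, 1751 to 2213 in Si1AK minus Si2AK, 0 to 9 in SiC minus NT, 811 to 1211 in Si1AK minus NT and 2290 to 2922 in Si2AK minus NT, with 3 to 5 in each of the 2 lists. The cause of these changes was not tested.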
